A study of Arabidopsis thaliana with 9 samples.

Results

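Callus of the Arabidopsis thaliana emf2 mutant was compared with rosette leaves of wild-type (WT) plants, 3 libraries against 3 of the 9 in the series. The comparison takes every gene that the authors listed as expressed in either group. Levels are in RPKM, which divides a gene's reads by its length and by a size for the library. The lists hold genes with a group mean over 1 RPKM, so for a gene missing from one of them the mean there is 1 RPKM or less. Of the 18861 genes listed for any of the 3 groups of the series, 18647 were listed for emf2 callus or leaf. Both lists held 14693 genes, 1953 genes were listed for emf2 callus and not for leaf, and 2001 were listed for leaf and not for emf2 callus.

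EMF2 encodes a zinc-finger subunit of Polycomb Repressive Complex 2 (PRC2), the enzyme complex that methylates histone H3 at the K27 position and keeps developmental genes silent in tissues where they are not needed. Plants that lack EMF2 skip rosette growth and form flower-like structures as seedlings. Callus is a mass of dividing cells in culture. On medium rich in auxin it is known in Arabidopsis to form along a path that resembles the start of a lateral root, whatever organ it was taken from.

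The leaf libraries were Col-0 wild type, from plants kept for 1 week on Murashige and Skoog medium in continuous light and then for 2 weeks on soil with 16 h of light per day at 21 °C. The emf2 callus grew out of cotyledons, and the file headers give its allele as emf2-1, a lesion that the labels do not describe. Its Gamborg B5 medium contained kinetin, a cytokinin (0.46 µM), and the synthetic auxin 2,4-D (2.2 µM). Cotyledons spent their first week in light and the cultures stayed in darkness from then on, to an age of 6 to 8 weeks. Callus of Col-0 wild type was raised in the same way, and its values are given beside a result where they bear on it. The labels call the replicates biological. Callus was grown at 23 °C. Genotype, tissue, medium, light, temperature and age all differ between emf2 callus and leaf, so their shares in a difference cannot be told apart, and in RNA from whole tissue fewer cells of a type cannot be told apart from less RNA per cell.

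The listed genes of each library held 39.5 to 53.2 M reads, counted as the smallest whole numbers that give the deposited ratios between libraries. The first principal component took 85.2% of the variance and separated the leaf libraries from both kinds of callus. The tissue labels were checked on photosynthesis genes: 41 genes of the photosystems and antenna took 10.4 to 11.6% of the reads in the leaf libraries and 0.00731 to 0.0196% in emf2 callus. The leaf libraries differed among themselves in other genes. Leaf replicate 2 stood apart in heat-shock genes, whose summed level was 1094 RPKM against 23.0 and 41.7 RPKM in the other leaf libraries. Leaf replicate 3 stood apart in salicylic acid defence genes, with 4263 RPKM against 782 and 1335 RPKM.

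EMF2 itself was not lower in the mutant callus. Its level was 13, 15.5 and 16.3 RPKM in emf2 callus and 5.50, 6.07 and 29.6 RPKM in leaf, so the groups overlapped through leaf replicate 3. The log2 fold change was 0.50 ± 0.52 (SE) with an adjusted p of 0.417 (limma, Benjamini-Hochberg). It passed as higher without leaf replicate 3 (1.23, adjusted p = 9.96e-05) and with values scaled to library totals (1.35, adjusted p = 0.0465). Reads over the gene do not check the allele, since the labels do not describe its lesion.

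Most of the genome's expressed genes differed between mutant callus and leaf. Of 14693 genes in both lists, 9595 (65.3%) passed at an adjusted p under 0.05. In emf2 callus 5004 genes (34.1%) were higher and 4591 (31.2%) lower. With a change of at least 2-fold asked for as well, 2171 genes (14.8%) were higher and 3196 (21.8%) lower. Falls reached further than rises: 482 genes fell by at least 16-fold and 75 rose by as much. The 3 emf2 libraries all lay above the 3 leaf libraries in 5616 genes (38.2%) and all below them in 4984 (33.9%). The tested genes had a median log2 fold change of 0.08 and a median standard error of 0.18.

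Genes missing from the other list were tested against the highest mean that their absence allows, 1 RPKM. Such a gene is listed only if its mean is over 1 RPKM, so the direction of this test was fixed by the listing. A pass shows only that the listed mean was clear of 1 RPKM, and the spread of the unlisted group does not enter. Of the 1953 genes listed for emf2 callus and not leaf, 1566 (80.2%) were above that bound, and of the 2001 listed for leaf and not emf2 callus, 1789 (89.4%) were. WT callus also listed 1709 of the 1953 emf2 genes, and the remaining 244 were listed for emf2 callus alone. Leaf alone listed 1697 of the 2001 leaf genes.

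The division into higher and lower depends on the scale. The denominators of the deposited RPKM stood at 0.648 times the recovered library totals in leaf and 1.26 times in emf2 callus, relative to the geometric mean over all 9 libraries. Scaling to library totals moved the median gene by 0.85 log2 units toward emf2 callus, and quantile normalization by 0.17. On the deposited scale 52.2% of the genes that passed were higher in emf2 callus, against 79.1% on library totals. Changes below are on the deposited scale, as log2(RPKM + 1), which understates changes of genes near 1 RPKM. Values after ± are SD over 3 libraries for levels and SE for fold changes.

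**Figure D1:**
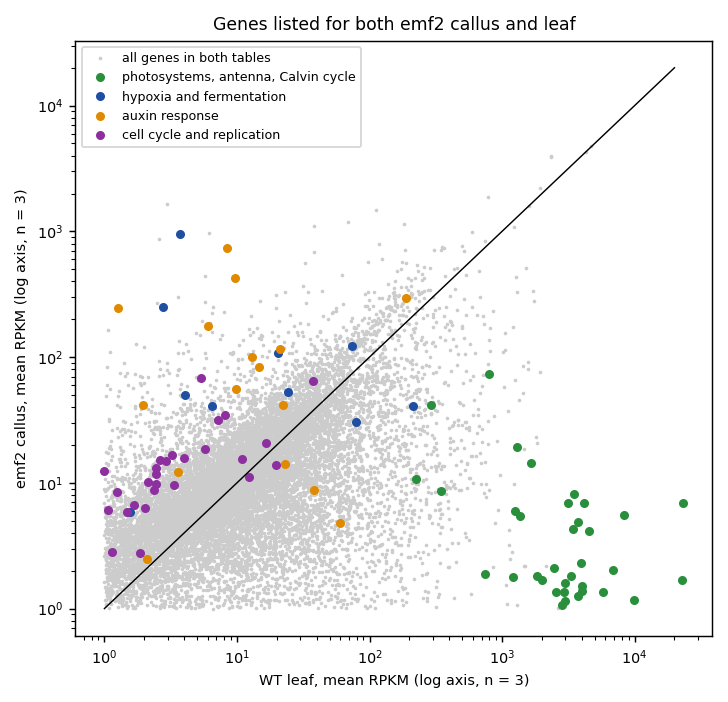
Mean RPKM in emf2 callus (vertical, log axis, 3 libraries) against mean RPKM in leaf (horizontal, log axis, 3 libraries) for the 14693 genes listed for both, with gene lists in colour and the line of equal level. The photosystem, antenna and Calvin cycle genes lie far below the line at leaf levels of 223 to 23374 RPKM, and most hypoxia, auxin response and cell cycle genes lie above it.

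The largest rise was that of LTP2, which encodes a lipid transfer protein of the cell wall. It was at 1943, 1186 and 1865 RPKM in emf2 callus and at 1.91, 3.26 and 3.67 RPKM in leaf, a log2 fold change of 8.72 ± 0.29. The groups lay far apart. ARD3, which encodes an acireductone dioxygenase of methionine salvage, was at 937, 664 and 991 RPKM in emf2 callus against 0.876, 0.586 and 6.33 RPKM in leaf (8.25 ± 0.58). ADH1, the alcohol dehydrogenase of ethanol fermentation, was at 896, 775 and 1174 RPKM against 3.63, 3.84 and 3.75 RPKM (7.62 ± 0.18).

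The other 7 of the 10 largest rises were PBP1 (7.07 ± 0.30) and JAL34 (6.53 ± 0.66), which encode jacalin-type lectins, the auxin-conjugating enzymes GH3.3 (7.02 ± 0.72) and GH3.2 (7.00 ± 0.44), the Kunitz trypsin inhibitor KTI1 (6.69 ± 0.63), AT4G10270 of a wound-responsive family (6.36 ± 0.23) and the phytoglobin PGB1 (6.08 ± 0.46). GH3.3, GH3.2, KTI1 and JAL34 were uneven in leaf, with replicate 3 above the others. GH3.3 was at 1.49, 2.27 and 21.4 RPKM in the leaf libraries, still below its lowest emf2 value of 623 RPKM.

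Among genes not listed for leaf, the highest in emf2 callus was AT5G01870, of the lipid transfer protein superfamily, at 2950, 1604 and 2170 RPKM. AT2G05510, a glycine-rich protein gene, was at 1006 ± 406 RPKM. The osmotin gene OSM34 was at 800 ± 151 RPKM, and the lectin gene JAL33 was at 625 ± 130 RPKM. BGLU23, which encodes the beta-glucosidase PYK10 of endoplasmic reticulum bodies and is known for its abundance in roots, was at 610, 350 and 622 RPKM. NAI2, needed to form those bodies, was at 125 ± 32.9 RPKM. All 6 genes were in the list of WT callus too, and none of them differed between emf2 and WT callus at an adjusted p under 0.05 (limma).

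**Figure D2:**
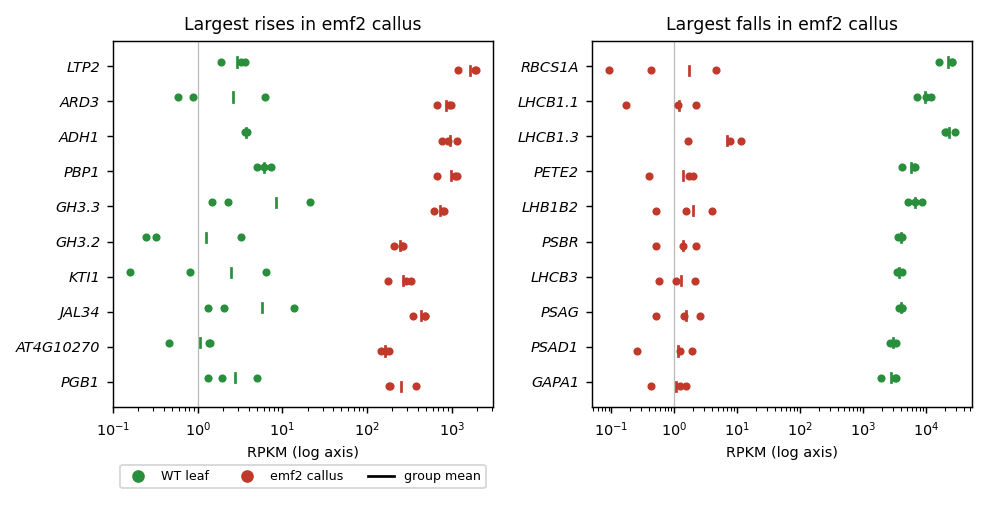
RPKM (log axis) in each library for the 10 largest rises (left) and the 10 largest falls (right) in emf2 callus against leaf, among genes listed for both groups. Points are libraries and bars are group means; the leaf and emf2 callus libraries do not overlap in any of the 20 genes, which were chosen among genes without overlap.

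Photosynthesis genes made up the other extreme. RBCS1A, a gene for the small subunit of Rubisco, was at 26448, 26038 and 15971 RPKM in leaf and at 0.0917, 0.427 and 4.55 RPKM in emf2 callus, and it fell by 13.40 ± 0.68 on the log2 scale. The 3 other small-subunit genes, RBCS3B, RBCS2B and RBCS1B, were at 8942 ± 1233, 6157 ± 1307 and 4831 ± 1523 RPKM in leaf and were not listed for emf2 callus. LHCB1.1, an antenna protein of photosystem II, fell by 12.23 ± 0.87, and its copy LHCB1.3 fell by 11.76 ± 1.13. Reads of these near-identical copies may have been divided among the copies, so the level of each copy is uncertain while their shared loss is not.

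All 41 genes of the photosystem and antenna list were lower in emf2 callus: 25 fell and 16 were listed for leaf alone of the groups compared and passed the bound. Their median log2 fold change was -10.12, against 0.08 over all genes, and the smallest fall was 7.68 (ATPD, the delta subunit of the chloroplast ATP synthase). PETE2, the major plastocyanin that carries electrons to photosystem I, was at 6460, 6633 and 4211 RPKM in leaf and at 0.390, 2.00 and 1.70 RPKM in emf2 callus. Within emf2 callus, replicate 2 was the highest in most of these genes: the list summed to 118 RPKM there and to 44.4 and 62.9 RPKM in the other libraries. Dark-induced genes were also highest in that library, at 209 RPKM against 36.4 and 102 RPKM, and the relation of the sums was not tested.

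The carbon side of photosynthesis was lower as well, but less evenly. All 19 genes of Rubisco and the Calvin cycle were lower, 10 by test and 9 against the bound, with a median log2 fold change of -6.56. Rubisco activase (RCA) fell by 10.28 ± 0.42, from 9451, 10241 and 5388 RPKM to 4.73, 6.35 and 5.41 RPKM. Phosphoribulokinase (PRK), sedoheptulose bisphosphatase (SBPASE) and GAPB, enzymes found only in the photosynthetic cycle, were not listed for emf2 callus. Nor was the plastid aldolase gene FBA1, at 1911 ± 942 RPKM in leaf. Among genes still listed for emf2 callus, plastid triose phosphate isomerase (TIM) was at 41.6 ± 1.35 RPKM in emf2 callus, transketolase TKL1 at 73.4 ± 6.68 RPKM and PGK1 at 19.4 ± 2.00 RPKM, while GAPA1 was at 1.07 ± 0.580 RPKM.

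All 14 photorespiration genes were lower too (8 fell and 6 passed the bound, with a median of -6.10). SHM1, the mitochondrial serine hydroxymethyltransferase, fell from 1463, 1455 and 998 RPKM to 1.26, 0.976 and 0.976 RPKM. Of 21 genes for chlorophyll synthesis and greening, 20 were lower and 1 was in neither list. The transcription factors GLK1 and GLK2, which switch on the photosynthetic genes, were at 118 ± 35.2 and 57.4 ± 15.2 RPKM in leaf and not listed for emf2 callus. Starch genes were less uniform: 7 of 9 were lower, while the branching enzyme gene SBE2.1 was at 12.6 ± 2.86 RPKM in leaf and 12.7 ± 1.35 RPKM in emf2 callus. No gene of the photosystem, Calvin cycle, photorespiration and chlorophyll lists rose under any scale tried, and 1 starch gene did on library totals.

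Emf2 callus and WT callus did not differ by an adjusted test in any photosystem gene that both listed. The photosystem list summed to 991, 96.4 and 246 RPKM in the WT callus libraries, against at most 118 RPKM in emf2 callus. Of its 25 genes listed for all groups, 0 passed between the calluses (limma, Benjamini-Hochberg) and 13 had an unadjusted p under 0.05. The median absolute log2 difference was 1.52, and WT callus replicate 1 stood well above the other WT callus libraries.

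A pair of promoters from the leaf side are shown as examples that hold elements for which light-driven genes are known in plants. They cover the 250 bases before the annotated gene start (RefSeq TAIR10.1, in the gene's direction): RBCS2B at chr5:15382072-15382321 on the minus strand and PETE2 at chr1:7043393-7043642 on the minus strand. Capitals mark the G-box CACGTG and the I-box GATAAG on either strand (CTTATC on the other).
RBCS2B: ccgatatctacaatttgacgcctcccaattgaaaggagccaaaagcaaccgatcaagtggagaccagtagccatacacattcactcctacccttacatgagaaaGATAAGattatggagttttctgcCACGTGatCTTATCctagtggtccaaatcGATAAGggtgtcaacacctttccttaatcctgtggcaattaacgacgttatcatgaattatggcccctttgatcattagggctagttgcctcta
PETE2: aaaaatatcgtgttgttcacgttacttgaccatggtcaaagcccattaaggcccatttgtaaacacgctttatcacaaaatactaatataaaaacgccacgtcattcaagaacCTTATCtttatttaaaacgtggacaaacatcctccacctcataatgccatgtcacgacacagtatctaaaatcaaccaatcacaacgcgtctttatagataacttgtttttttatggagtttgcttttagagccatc
RBCS2B holds a G-box that starts 123 bases before the gene start and I-boxes at 146, 115 and 94 bases before it. PETE2 holds an I-box at 137 bases. Over the photosystem list, 7 of 41 promoters (17.1%) hold a G-box and 12 (29.3%) an I-box. Among all 27437 protein-coding promoters of that length the shares are 6.49% and 12.3%. In the Calvin cycle list 3 of 19 (15.8%) hold a G-box and 4 (21.1%) an I-box. A match to these letters is a description of the sequence, not a site shown to be bound.

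**Figure D3:**
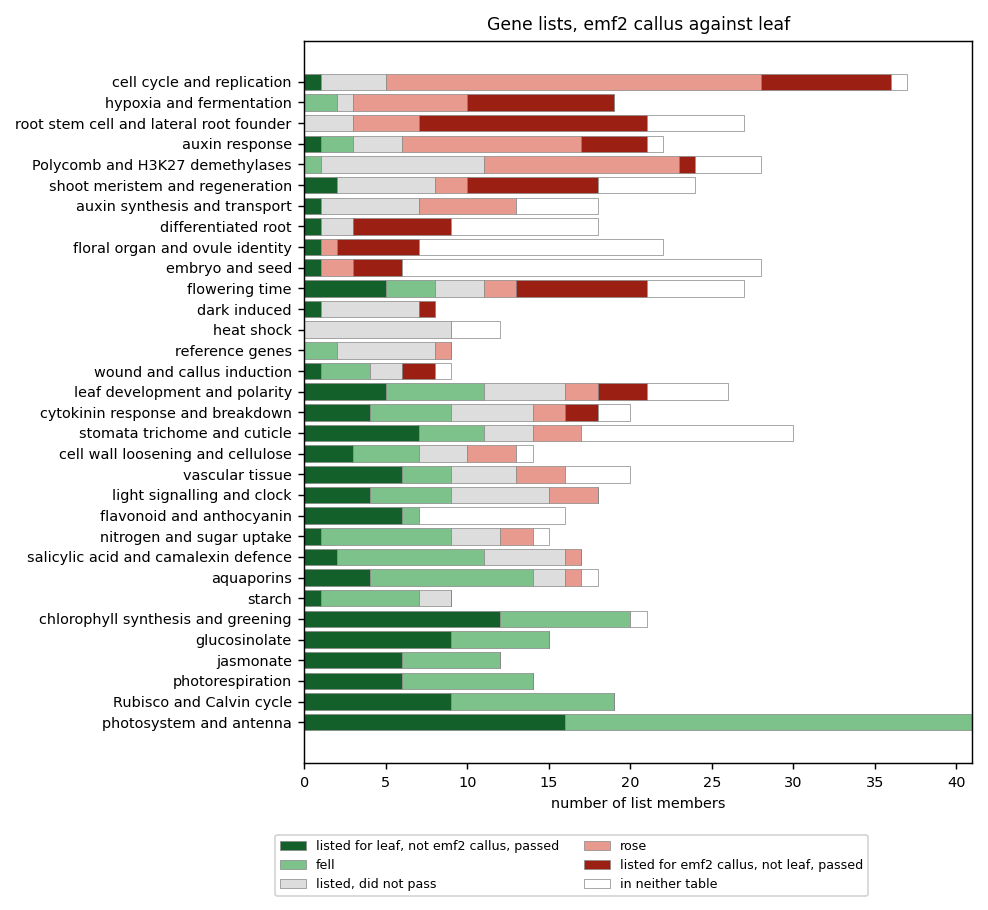
Number of members of each gene list by outcome in emf2 callus against leaf: listed for leaf and not emf2 callus and above the bound (dark green), fell (light green), listed without passing (grey), rose (light red), listed for emf2 callus and not leaf and above the bound (dark red), in neither list (white). The photosystem, Calvin cycle, photorespiration, jasmonate and glucosinolate lists are green throughout, and cell cycle, hypoxia, root stem cell and auxin response are mostly red.

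Genes of fermentation and the low-oxygen response were among the clearest gains. Of 19 genes, 7 rose, 9 were listed for emf2 callus and not leaf and were above the bound, 2 fell and 1 did not pass. The median log2 fold change of those in both lists was 1.89. The list took 0.694 to 0.854% of reads in emf2 callus and 0.0910 to 0.137% in leaf. PDC1, the pyruvate decarboxylase that feeds ADH1, was at 318, 273 and 325 RPKM in emf2 callus and not listed for leaf. Its relative PDC2 rose by 1.13 ± 0.29.

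Regulators of the response were higher with the enzymes. The ERF factor HRE1 rose from 2.78, 3.15 and 6.19 RPKM to 41.1, 54.1 and 53.7 RPKM (3.38 ± 0.35). HRE2, LBD41, HRA1 and the oxygen-sensing cysteine oxidases PCO1 and PCO2 were at 38.3 to 219 RPKM on average in emf2 callus and were not listed for leaf. Sucrose synthase SUS1 rose by 2.36 ± 0.17 and lactate dehydrogenase (LDH) by 2.47 ± 0.13. The NADPH oxidase gene RBOHD, known also from defence, and SRO5 fell by 2.38 ± 0.17 and 1.34 ± 0.23, though SRO5 did not pass on library totals. Between emf2 and WT callus 0 of the 19 genes passed (limma, Benjamini-Hochberg), and 4 had an unadjusted p under 0.05.

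The ADH1 promoter is shown because it alone in the list matches the pattern searched for the hypoxia-responsive element (HRPE). That pattern leaves some positions open to any base. The promoter lies at chr1:28975005-28975254 on the plus strand, and the capitals mark the match.
ADH1: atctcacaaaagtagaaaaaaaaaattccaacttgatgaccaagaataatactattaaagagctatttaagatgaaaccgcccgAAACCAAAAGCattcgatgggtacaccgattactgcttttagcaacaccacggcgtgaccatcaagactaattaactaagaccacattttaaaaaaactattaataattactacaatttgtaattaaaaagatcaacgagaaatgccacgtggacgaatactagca
The pattern was searched on both strands, and the match starts 166 bases before the gene start. Every open position is an A in the match, and whether the match is the element itself was not tested. Of 19 promoters in the list, 1 (5.26%) holds a match, and of all promoters 0.809%. For the other 18 this says only that these letters are not in this window.

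Auxin response was a further group of gains. Of 22 genes, 11 rose, 4 were listed for emf2 callus and not leaf and above the bound, and 3 were lower (IAA3, IAA7 and IAA6). The median log2 fold change was 2.46. The GH3 enzymes that join auxin to amino acids led: GH3.5 rose by 5.62 ± 0.50 and GH3.6 by 4.70 ± 0.42, while GH3.17 (58.5 ± 11.1 RPKM) and GH3.1 (45.9 ± 10.5 RPKM) were not listed for leaf. GH3 genes are similar in sequence, and the counting may have divided some reads among them. Of the Aux/IAA repressors, IAA5 rose from 1.97, 1.80 and 2.11 RPKM to 59.4, 22.2 and 43.5 RPKM (3.75 ± 0.40), and IAA7 fell from 59.6 ± 17.3 to 4.75 ± 0.993 RPKM (-3.37 ± 0.32). IAA3 also fell, but did not pass on library totals.

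Genes of auxin synthesis and transport moved less evenly. Of 18 genes, 6 rose, 6 did not pass, 1 was listed for leaf and not emf2 callus and 5 were in neither list. Of the 12 in both lists 6 rose and 0 fell, while over all genes tested 34.1% were higher and 31.2% lower. The carrier genes PIN3 (-0.05 ± 0.27), PIN4 (-1.15 ± 0.46), LAX3 (-0.02 ± 0.46) and ABCB19 (-0.47 ± 0.31) did not pass. PIN4 passed as lower under median-of-ratios scaling. The genes that rose included the efflux carrier gene PIN7 (2.74 ± 0.34). It was at 133, 94.2 and 110 RPKM in emf2 callus and 26.1, 8.70 and 17.1 RPKM in leaf, with no overlap between the groups. The kinase gene PID, which directs efflux carriers, rose by 3.00 ± 0.26. The influx carrier gene LAX2 rose from 5.2, 3.26 and 2.55 RPKM to 20.5, 30.5 and 15.5 RPKM. Another influx carrier gene, AUX1, rose by 0.77 ± 0.27 and did not pass under median-of-ratios scaling. TAA1 and YUC8 of auxin synthesis were at 1.11 to 1.65 RPKM on average in both groups and did not pass.

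Cytokinin genes moved both ways: 4 of 20 were higher and 9 lower. Of the 11 in both lists 2 rose and 5 fell, while over all genes tested 34.1% were higher and 31.2% lower. The list's median log2 fold change of -0.35 turned to 0.60 on library totals and 0.03 under quantile normalization. The cytokinin oxidase gene CKX3 was at 54.5 ± 8.20 RPKM in emf2 callus and not listed for leaf. The response regulator ARR7 fell from 37.4 ± 16.6 to 9.27 ± 3.77 RPKM, and ARR15 and ARR16 were listed for leaf and not for emf2 callus. The receptor gene AHK4 rose by 0.83 ± 0.17, whereas AHK2 and AHK3 fell by 1.13 ± 0.17 and 0.66 ± 0.13, did not pass on library totals, and AHK3 did not pass under quantile normalization either.

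A pair of GH3 promoters is shown because these genes rose most among those of auxin response and both hold the TGTCTC auxin response element (capitals). GH3.2 is at chr4:17579368-17579617 on the plus strand and GH3.3 at chr2:9866563-9866812 on the minus strand.
GH3.2: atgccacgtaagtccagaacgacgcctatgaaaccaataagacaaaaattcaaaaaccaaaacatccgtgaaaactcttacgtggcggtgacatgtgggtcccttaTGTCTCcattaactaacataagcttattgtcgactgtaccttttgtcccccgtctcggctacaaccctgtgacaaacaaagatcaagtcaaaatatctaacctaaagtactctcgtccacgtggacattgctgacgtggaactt
GH3.3: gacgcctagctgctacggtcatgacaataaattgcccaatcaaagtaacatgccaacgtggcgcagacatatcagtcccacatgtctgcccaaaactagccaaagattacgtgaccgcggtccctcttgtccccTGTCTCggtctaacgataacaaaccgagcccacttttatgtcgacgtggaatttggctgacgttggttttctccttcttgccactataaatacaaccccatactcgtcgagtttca
The match starts 144 bases before the gene start in GH3.2 and 116 bases before it in GH3.3. Over both strands 8 of the list's 22 promoters (36.4%) hold it, against 10.9% of all promoters.

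Genes of the cell cycle and DNA replication were higher as a group. Of 37 genes, 23 rose, 8 were listed for emf2 callus and not leaf and above the bound, 4 did not pass, 1 was lower and 1 was in neither list. The median log2 fold change was 1.66, and no member fell under quantile or library-total scaling, while CYCD3;2 passed as lower under median-of-ratios scaling. CYCD3;1, the D-type cyclin that responds to cytokinin, was at 92.5, 58.5 and 54.0 RPKM in emf2 callus and at 6.06, 6.23 and 3.81 RPKM in leaf (3.43 ± 0.37). The B1-type cyclin CYCB1;1 and the cytokinesis kinesin HIK were at 4.38 ± 1.18 and 8.27 ± 1.99 RPKM and were not listed for leaf. The kinase CDKA;1, present through the cycle, was at 20.6 ± 1.21 against 16.5 ± 0.549 RPKM and did not pass. The lower gene was the cyclin CYCD1;1, at 5.4 ± 3.13 RPKM in leaf and not listed for emf2 callus.

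All 6 MCM helicase genes of replication rose, by 1.29 to 2.17. MCM2 was at 17.7, 12.8 and 14.8 RPKM in emf2 callus and at 2.92, 3.32 and 1.67 RPKM in leaf. Its promoter (chr1:16969964-16970213, plus strand) is shown as the example of an E2F element, in capitals, the element through which replication genes are known to be switched on for S phase.
MCM2: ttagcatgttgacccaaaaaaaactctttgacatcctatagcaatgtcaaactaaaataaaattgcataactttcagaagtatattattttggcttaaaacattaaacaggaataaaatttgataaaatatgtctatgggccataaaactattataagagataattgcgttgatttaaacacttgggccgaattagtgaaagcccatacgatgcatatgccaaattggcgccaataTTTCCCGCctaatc
The letters searched were TTTNNCGC on both strands, and the match starts 14 bases before the gene start. Of 37 promoters in the list, 9 (24.3%) hold it, against 5.86% of all promoters. The 23 genes that rose had mean levels of 2.77 to 68.3 RPKM in emf2 callus, so the group is a small share of the RNA: 0.144 to 0.189% of reads against 0.0252 to 0.0297% in leaf. A further motif, the telobox AAACCCTA, was searched in genes listed for emf2 callus and not leaf. It was in 101 of 1948 promoters (5.18%), near the 4.49% of all promoters.

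Root stem cell and lateral root genes were expressed in emf2 callus, which was raised from cotyledons. Of 27 genes, 4 rose, 14 were listed for emf2 callus and not leaf and above the bound, 3 did not pass, 6 were in neither list and 0 were lower, although ARF7 passed as lower under median-of-ratios scaling. WOX5, which marks the quiescent centre of the root tip, was at 49.7, 67.5 and 40.7 RPKM. WOX11, a gene of root founder cells, was at 38.0 ± 3.19 RPKM. In WT callus it was at 87.6 ± 12.1 RPKM, and the difference between the calluses did not pass (-1.18, adjusted p = 0.0686, limma). Of the PLETHORA factors that keep root stem cells, PLT3 was at 76.2 ± 5.00, PLT1 at 26.1 ± 0.206 and PLT2 at 10.3 ± 0.769 RPKM. WT callus listed WOX5, PLT1 and PLT2 too, at 34.3, 16.5 and 12 RPKM on average. Of 20 genes of the list tested between the calluses, 1 passed (ANR1). SHR, the mobile regulator of root radial pattern, rose from 10.9, 7.93 and 5.59 RPKM to 60.1, 63.1 and 38.7 RPKM, and its partner SCR was at 22 ± 7.88 RPKM in leaf and 27.9 ± 3.79 RPKM in emf2 callus without passing. Of 18 genes of differentiated root tissue, 6 were above the bound in emf2 callus, among them the root cap gene SMB (13.1 ± 2.91 RPKM) and BGLU23, and 9 were in neither list.

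Some shoot meristem genes were present beside them. Of 24 genes, 2 rose, 8 were listed for emf2 callus and not leaf and above the bound, and 2 were lower. Another 5 did not pass, 1 was listed for emf2 callus without passing the bound and 6 were in neither list. Of the 7 in both lists 2 rose and 0 fell, while over all genes tested 34.1% were higher and 31.2% lower. STM, the homeobox gene that keeps the shoot meristem undifferentiated, was at 20.9, 21.1 and 19.7 RPKM and not listed for leaf. In WT callus it was at 2.51 RPKM on average, and the difference between the calluses was 2.76 on the log2 scale with an adjusted p of 0.0914. Its relative KNAT1 was at 13.1 ± 1.81 RPKM in emf2 callus and 3.33 RPKM in WT callus, with an adjusted p of 0.0505. The receptor gene CLV1 went the other way, at 29.1, 28.2 and 26.0 RPKM in leaf and not listed for emf2 callus. BBM, a factor of embryos and root stem cells, was at 19.6 ± 5.03 RPKM and not listed for leaf, but 22 of the 28 embryo and seed genes were in neither list.

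Leaf development genes moved both ways. Of 26 genes of leaf development, 5 were higher and 11 lower, with a median log2 fold change of -0.73 that became 0.06 on library totals. Of the 10 in both lists 2 rose and 6 fell, while over all genes tested 34.1% were higher and 31.2% lower. The class III homeobox genes PHB and PHV, which specify the upper leaf side and also act in meristems and vessels, rose by 2.90 ± 0.34 and 2.54 ± 0.19, and their relative ATHB8 by 2.26 ± 0.25. ATHB15 of the same class rose from 7.55, 8.47 and 4.90 RPKM to 67.6, 75.0 and 56.2 RPKM. PHB was at 81.9, 106 and 55.7 RPKM against 12.4, 12.1 and 5.97 RPKM. Of genes known from the lower leaf side, FIL, YAB5 and KAN1 were listed for leaf and not for emf2 callus and passed the bound, and YAB3 fell by 2.06 ± 0.27. KAN2 was listed for leaf without passing the bound (adjusted p = 0.329), and YAB2, at 3.23 ± 0.592 RPKM in leaf and 3.2 ± 0.247 RPKM in emf2 callus, did not pass (adjusted p = 0.983), although it passed as higher on library totals. Of the TCP factors that end cell division in leaves, TCP4 was at 19.1 ± 4.55 RPKM in leaf and not listed for emf2 callus, and TCP10 fell from 35.0, 30.3 and 18.6 RPKM to 2.15, 2.61 and 2.44 RPKM. TCP24 fell by 0.87 ± 0.20 and did not pass on library totals, and TCP2 did not pass (adjusted p = 0.124). The growth-promoting GRF1, GRF2 and AN3 were listed for emf2 callus and not for leaf.

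Markers of finished leaf cell types were mixed. Of 30 stomatal, trichome and cuticle genes, 3 rose, 11 were lower and 13 were in neither list, and of 20 vascular genes 3 rose and 9 were lower. Of the 10 stomatal, trichome and cuticle genes in both lists 3 rose and 4 fell. Of the 10 vascular genes in both lists 3 rose and 3 fell. Both are near the shares over all genes. Both medians were below 0 on the deposited scale (-0.91 and -0.25) and above it on library totals (0.04 and 0.36). Guard cell genes FAMA, KAT1, KAT2, MYB60, SLAC1 and HT1 were at 1.62 to 9.20 RPKM in leaf, and 0 of these 6 were listed for emf2 callus. The phloem genes SUC2, SWEET11 and APL, at 185 ± 24.8, 178 ± 29.4 and 20.8 ± 3.54 RPKM in leaf, were not listed either. The cambium receptor gene PXY rose from 5.58 ± 0.775 to 36.6 ± 14.3 RPKM. The epidermal homeobox genes ATML1 and PDF2 fell by 1.42 ± 0.26 and 2.17 ± 0.24. The epidermal protein gene PDF1 rose by 2.35 ± 0.68, from 0.608 to 3.28 RPKM in leaf to 7.31, 31.4 and 12.3 RPKM, and did not pass without emf2 replicate 2 (adjusted p = 0.0513).

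Floral genes are among the best known targets of PRC2, and most floral organ genes were at 1 RPKM or less in both tissues. Of 22 genes of floral organ and ovule identity, 15 were in neither list, 1 rose (AP2, by 1.56 ± 0.16), 5 were listed for emf2 callus and not leaf and above the bound, and SEP4 was listed for leaf and not emf2 callus. PI, which specifies petals and stamens, was at 45.5, 57.5 and 50.9 RPKM. SEP2, a partner of the organ identity factors, was at 6.49, 10.4 and 8.41 RPKM, and SHP1, a carpel and ovule gene, was at 9.78, 8.01 and 6.33 RPKM. AG (1.77, 1.63 and 1.15 RPKM) and the ovule gene STK (1.61, 1.55 and 1.33 RPKM) were just above the bound.

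PI was also listed for WT callus, at 22.3 RPKM, and the difference between the calluses did not pass (1.17, adjusted p = 0.0726). AG, SEP2, SHP1 and STK were not listed for WT callus. Tested against the 1 RPKM that this absence allows, SEP2, SHP1 and STK passed and AG had an adjusted p of 0.0716. Over all genes, 147 of 461 listed for emf2 callus and not WT callus passed that test.

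Flowering time genes moved both ways, with 10 of 27 higher and 8 lower in emf2 callus. Of the 8 in both lists 2 rose and 3 fell, near the shares over all genes tested (34.1% higher and 31.2% lower). FLC, the repressor that PRC2 is known to silence in winter, was at 2.69, 4.51 and 1.87 RPKM in emf2 callus and was listed for neither leaf nor WT callus. Its relatives MAF4 (2.70 ± 0.336 RPKM) and MAF5 (2.27 ± 0.429 RPKM) were likewise listed for emf2 callus alone, and MAF2 rose by 0.95 ± 0.12, with the reads of these close copies possibly divided among them. The repressors SVP and TEM1 fell by 1.57 ± 0.17 and 2.38 ± 0.18. The activators SOC1 (14.3 ± 9.19 RPKM), AGL24, SPL4, SPL5 and FT were listed for leaf and not for emf2 callus, while the SOC1 relatives AGL71 and AGL72, at 4.25 ± 0.553 and 9.37 ± 0.680 RPKM, were listed for emf2 callus alone. FLC, MAF4, MAF5, AGL71 and AGL72 also passed the bound set by their absence from the WT callus list.

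**Figure D4:**
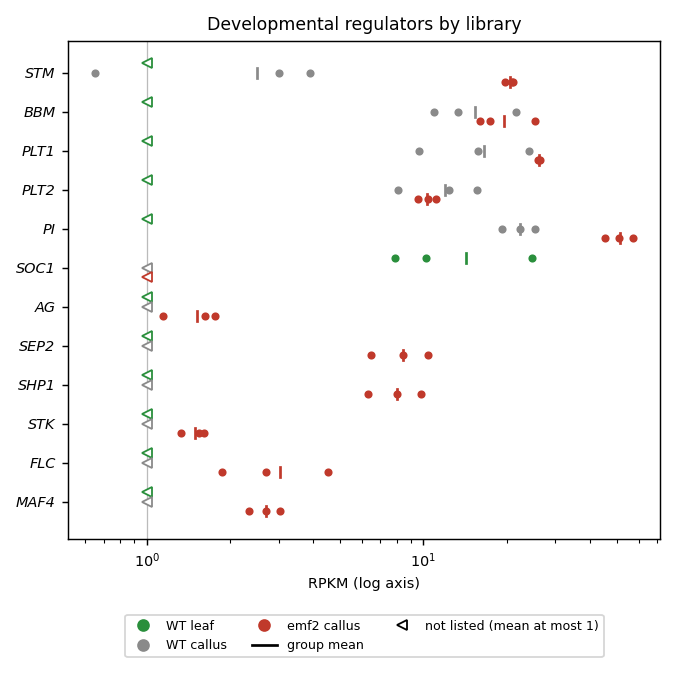
RPKM (log axis) in each library of 12 regulators of meristems, flowers and flowering time in leaf, WT callus and emf2 callus, with bars for group means. Open triangles at 1 RPKM mark groups that do not list the gene; AG, SEP2, SHP1, STK, FLC and MAF4 have points in emf2 callus alone, and SOC1 in leaf alone.

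Among the listed Polycomb components, all but 1 were higher in emf2 callus or did not pass. Of 28 genes that encode PRC1 and PRC2 parts, partners and H3K27 demethylases, 12 rose, 1 was listed for emf2 callus and not leaf and above the bound, 1 fell, 9 did not pass, 1 was listed for emf2 callus without passing the bound and 4 were in neither list. The median log2 fold change was 0.46, and 34.1% of all tested genes were higher. Under median-of-ratios scaling 11 rose and on library totals 21. Of the PRC2 core, the methyltransferase CLF rose from 3.7, 2.6 and 2.69 RPKM to 7.91, 7.07 and 7.57 RPKM (adjusted p = 0.000186), and MSI1 rose by 1.31 ± 0.12. SWN (0.44 ± 0.20, adjusted p = 0.0849) and FIE (0.18 ± 0.11, adjusted p = 0.175) did not pass. VRN2, a relative of EMF2 that can take its place in PRC2, was at 6.51, 6.40 and 6.67 RPKM against 4.95, 4.68 and 5.56 RPKM, a small rise (0.31 ± 0.11) that did not pass under median-of-ratios scaling. The demethylase gene JMJ13 fell by 2.45 ± 0.18, and REF6 rose by 0.89 ± 0.12.

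EMF1, which encodes a plant-specific partner of PRC2, stood out among them. It was at 60.5, 69.0 and 68.4 RPKM in emf2 callus, 4.92, 5.25 and 5.02 RPKM in leaf and 8.36 RPKM on average in WT callus. The log2 fold change was 3.46 ± 0.12 against leaf and 2.84 against WT callus (adjusted p = 0.000153, limma). No other gene of the 24 listed for both calluses in this group differed between them.

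Emf2 callus and WT callus differed in few genes by the same test. Of 16185 genes listed for both, 16 (0.0989%) passed, 11 higher (0.068%) and 5 lower (0.0309%) in emf2 callus. Of the 9595 genes that differed between emf2 callus and leaf, 9 also differed between the calluses. ANR1, a MADS-box gene of the root response to nitrate, was at 38.4, 45.9 and 43.4 RPKM in emf2 callus, 3.75 RPKM in WT callus and absent from the leaf list. AT2G25330, of the TRAF-like family, was at 16.8, 16.1 and 17.5 RPKM against 1.03 RPKM in WT callus, and AT5G60610, an F-box gene, was at 11 ± 0.730 against 1.22 RPKM. HAP8 was at 34.8, 31.0 and 33.7 RPKM, above both leaf (9.09 ± 3.22 RPKM) and WT callus (4.73 RPKM).

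Among genes listed for all 3 groups, with at least 5 RPKM in the higher callus, those lower in emf2 callus than in both other groups numbered 3. The 304 genes listed for leaf and WT callus and not for emf2 callus were not tested between the calluses. TEM1, the repressor of FT named above, was at 9.48, 7.59 and 12.4 RPKM, against 54.7 ± 5.26 RPKM in leaf and 32.5 RPKM in WT callus. ATPMEPCRB, a pectin methylesterase gene, was at 1.06, 0.895 and 1.17 RPKM against 46.1 ± 3.43 and 5.81 RPKM. AT1G80450, of the VQ family, was at 2.68 ± 0.551 RPKM against 6.06 ± 2.59 and 16.5 RPKM, and its fall from leaf was not seen on library totals (adjusted p = 0.667). The count of 16 is itself unsteady: it was 3 to 6 when an emf2 library was left out and 62 without leaf replicate 3, which enters the shared estimate of the spread.

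**Figure D5:**
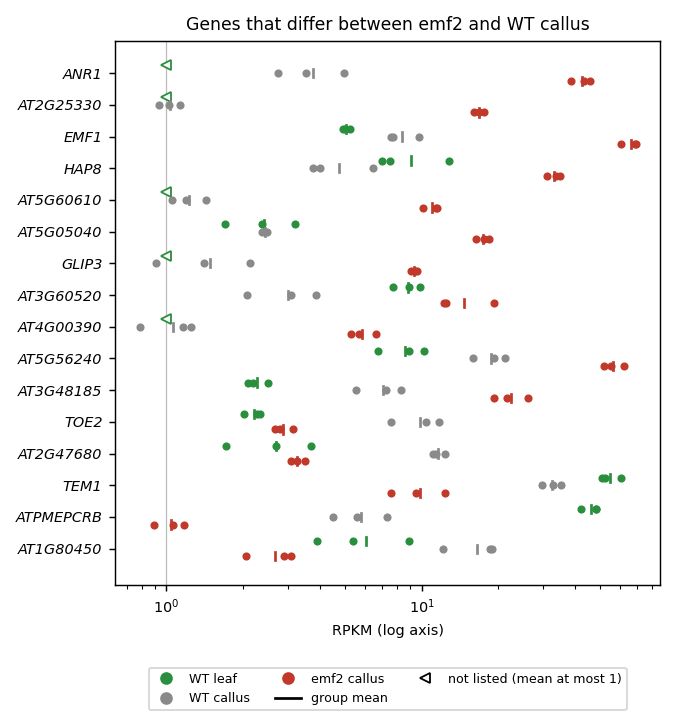
RPKM (log axis) in each library of leaf, WT callus and emf2 callus for the 16 genes that differed between emf2 and WT callus, with bars for group means and open triangles for groups that do not list the gene. EMF1 and ANR1 are highest in emf2 callus, and TEM1, ATPMEPCRB and AT1G80450 lowest there.

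Leaf defence and secondary metabolism were lower in emf2 callus. All 12 jasmonate genes were lower (6 fell and 6 passed the bound), and 4 of the 6 falls passed on library totals. AOS, which makes the jasmonate precursor, fell from 827, 968 and 429 RPKM to 16.4, 12.8 and 14.9 RPKM, and MYC2, the master regulator of the response, by 3.81 ± 0.26. All 15 glucosinolate genes were lower, and the myrosinases TGG1 and TGG2, at 1178 ± 391 and 539 ± 218 RPKM in leaf, were not listed for emf2 callus. Of 17 genes of salicylic acid and camalexin defence, 11 were lower and 1, the transporter gene EDS5, rose. On library totals 4 of the 9 falls passed. PR1 was at 12.7, 72.7 and 1144 RPKM in leaf and 10.8, 1.16 and 0.885 RPKM in emf2 callus. Its fall of 4.85 ± 1.44 rests on leaf libraries that differ widely, and it missed the threshold without emf2 replicate 2 or 3 (adjusted p = 0.0536 and 0.0573).

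Most water channels were lower, and genes of nitrogen and sugar uptake less evenly so. Of 15 genes of nitrogen and sugar uptake, 2 rose and 9 were lower. Of the 13 in both lists 2 rose and 8 fell, with a median log2 fold change of -1.05, while over all genes tested 34.1% were higher and 31.2% lower. On library totals 4 rose and 6 fell, with a median of -0.13. The falls of NRT1.1 and NIA1 did not pass on library totals or under quantile normalization. Of 18 aquaporins, 14 were lower and PIP2;5 rose, from 3.57, 11.3 and 2.03 RPKM to 37.1, 39.7 and 21.7 RPKM. TIP1;2, a channel of the vacuole membrane, fell from 854 ± 180 to 2.16 ± 1.66 RPKM. The plastid glutamine synthetase gene GLN2 fell from 1127 ± 225 to 4.21 ± 0.962 RPKM and nitrate reductase NIA2 from 1714 ± 626 to 336 ± 73.4 RPKM. The cytosolic GLN1;1 was at 18.0, 43.0 and 137 RPKM in leaf and 120, 85.9 and 123 RPKM in emf2 callus and did not pass. CWINV1, the cell wall invertase, rose by 1.70 ± 0.47.

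Of 9 wound and callus induction factors, 2 were higher and 4 lower. Of the 4 in both lists 0 rose and 3 fell, while over all genes tested 34.1% were higher and 31.2% lower. WIND1, which promotes callus at wounds, was at 159, 183 and 127 RPKM in leaf and 154, 185 and 151 RPKM in emf2 callus (0.07 ± 0.18, not passed), though it passed as higher on library totals and under quantile normalization. WIND3 was at 199 ± 24.8 RPKM in emf2 callus and not listed for leaf, while WIND2 fell by 2.98 ± 0.21 and ERF109, at 622 ± 119 RPKM in leaf, was not listed for emf2 callus. ERF115, a regeneration factor, was at 1.73, 1.76 and 1.00 RPKM in emf2 callus and 24.8 RPKM in WT callus, and that difference did not pass (adjusted p = 0.0634).

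Of 18 light signalling and clock genes, 3 rose and 9 were lower. Of the 14 in both lists 3 rose and 5 fell, while over all genes tested 34.1% were higher and 31.2% lower. The leaf libraries were uneven in many of the light signalling and clock genes. CCA1, a morning gene, was at 271, 226 and 51.6 RPKM in leaf and 2.95, 4.31 and 5.04 RPKM in emf2 callus (-4.88 ± 0.57), and the evening gene LUX was at 4.76, 2.43 and 19.9 RPKM in leaf and 16.6, 22 and 19.1 RPKM in emf2 callus. Leaf replicate 3 lay nearest to emf2 callus in both. The labels do not give the hour of harvest, and its part in these values was not tested. Of 12 heat-shock genes 9 were in both lists, and 0 passed (limma), adjusted or not, with HSP101 at 7.88, 144 and 5.94 RPKM in leaf and 9.59, 15.8 and 13.4 RPKM in emf2 callus. Of 8 dark-induced genes 1 was higher and 1 lower. Of 16 flavonoid genes 7 were lower and 9 were in neither list, and of 14 cell wall genes 3 rose and 7 were lower. Of the 10 cell wall genes in both lists 3 rose and 4 fell, near the shares over all genes. The 5 pollen and anther genes were in neither list.

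Common reference genes were not all level: ACT2 fell by 3.06 ± 0.24 and UBC9 by 1.80 ± 0.15, ACT7 rose by 0.94 ± 0.19, and 6 of 9 did not pass on the deposited scale, although 6 of the 9 passed as higher and 2 as lower on library totals.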

How the data were processed

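Messenger RNA was sequenced from 3 libraries each of leaf, WT callus and emf2 callus. Per the labels' protocols, RNA was extracted with RNeasy, selected for poly(A), made into libraries with the TruSeq RNA V2 kit and sequenced on an Illumina HiSeq instrument. The submitters' processing notes name FastQC, cutadapt, TopHat and the TAIR10 build, without versions. The program that counted reads, its use of strand and its treatment of reads shared by similar genes are not given in the sources used here. The deposited values are RPKM per gene and library, in 1 table per group, and in each table the mean of every gene was at least 1 RPKM.

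Tables were joined on the gene identifier, and 18843 of 18861 identifiers matched the RefSeq TAIR10.1 annotation, which served for names, coordinates and the 250 bases upstream of genes. Values were analysed as log2(RPKM + 1) with limma 3.58.1 in R 4.3.3 (means of 3 groups over 9 libraries, empirical Bayes with a trend on the mean), and p-values were adjusted by the Benjamini-Hochberg method over all genes tested, with a threshold of 0.05. Genes listed for 1 group of a pair were tested as that group's mean against the bound of 1 RPKM. The same fit gave emf2 callus against WT callus, so both comparisons share the emf2 libraries. For all 18861 genes (100%) the values of the libraries stood in ratios of whole reads at a relative tolerance of 2e-12, against 0.106% of 944 values altered at random, and the reads so recovered gave library totals. These cover listed genes and show counting depth only.

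Genes are named by these rules: EMF2, the 10 largest rises and falls among genes with no overlap between groups and at least 5 RPKM in the higher group, the 8 highest genes of each single list, up to 8 genes each way that also differed from WT callus, and up to 4 of at least 2-fold change per gene list. Other members of the gene lists are named to describe their list, including some that did not pass. The 33 lists and the comparison itself were chosen with earlier results of these data known, so no list is independent evidence of its direction. Replicate numbers did not pair the samples: deviations from the group means of same-numbered emf2 and leaf libraries correlated at 0.114, -0.011 and 0.159 across genes. Alternatives were a pseudocount of 0.1, other scalings, a fit on the 6 libraries alone, no trend, a minimum of 5 RPKM, each library left out and a replicate block.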

Additional observations from a re-analysis of the deposited data

How the results depend on the processing

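The scale of the values changed most. With library-total scaling 6544 genes were at least 2-fold higher in emf2 callus and 1865 lower, against 2171 and 3196 on the deposited scale, and 11778 genes passed. All 5004 genes higher on the deposited scale were also called higher there, and 2462 of the 4591 lower genes were also called lower. The cause of the difference between the deposited and the recovered denominators was not tested. Quantile normalization gave 9997 genes that passed, of which 60.1% were higher. Asking for a mean of at least 5 RPKM tested fewer genes and left 639 genes listed for emf2 callus and not leaf above the bound, against 1566. Leaving out each replicate in turn gave 8341 to 10128 genes that passed, 2092 to 2263 at least 2-fold higher, 3060 to 3361 at least 2-fold lower, and 1371 to 1571 and 1643 to 1801 above the bounds for emf2 callus and leaf. The count of genes that differed between emf2 and WT callus, 16, was recomputed under alternatives added after seeing the data. It was 49 under quantile normalization, 32 with library-total scaling, 57 with the 5 RPKM minimum, and 3 to 62 with a replicate left out. With library-total scaling, also added then for the bounds, 1887 and 1435 genes passed them.

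With the replicate block, 8995 genes passed, 2190 at least 2-fold higher and 3220 lower. The replicate numbers did not pair the samples, and PR1 was the named gene that missed the threshold with the block (adjusted p = 0.0552). Of 1801 alternative values for 146 named genes, 0 reversed, 11 lost their call (PDF1, AT1G80450, AT3G60520 and PR1) and 2 gained one (EMF2). For PDF1 this included a pseudocount of 0.1 (adjusted p = 0.0721, limma). Over 31 lists, 67 of 434 alternative medians moved by at least the median standard error of their members' fold changes, and 19 changed sign. On library totals the medians of flowering time (0.45), leaf development (0.06), stomata (0.04), vascular tissue (0.36), cytokinin (0.60), heat shock (0.64), dark-induced (0.53), cell wall (0.43) and reference genes (0.71) were above 0. Under quantile normalization those of stomata (0.02), cytokinin (0.03) and reference genes (0.32) were. The other 7 sign changes came from a single library left out or the 5 RPKM minimum. Genes of a few RPKM rest on few reads and on the pseudocount, and no gene under a mean of 1 RPKM in a group has a value there.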

Other observations

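Gene families grouped by words in their annotated names, chosen after seeing the data, are given here by their counts. Of 327 genes for ribosomal proteins, 317 were in both lists, of which 199 rose and 45 fell in emf2 callus. Their median log2 fold change was 0.68 against 0.08 over all genes. Of 35 proteasome genes, 15 rose, 0 fell and 20 did not pass, and all 35 rose on library totals. Of 37 histone genes, 33 were in both lists, of which 21 rose and 3 fell. Pentatricopeptide repeat proteins, which process organelle RNA, had 209 of 286 genes in both lists, of which 110 rose and 45 fell. Above the bound were 54 more listed for emf2 callus and not leaf, and 11 listed for leaf and not emf2 callus. Of 182 F-box genes, 126 were in both lists, of which 55 rose and 23 fell (98 and 9 on library totals), and 42 more were above the bound in emf2 callus. Over all genes in both lists, 34.1% were higher and 31.2% lower.

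Of 94 genes for NLR receptors, which sense pathogen effectors inside the cell, 58 were in both lists. Of these 7 rose and 40 fell, with a median of -1.55, or -0.69 on library totals with 13 risen and 29 fallen. Above the bound were 23 more listed for leaf and not emf2 callus, and 11 listed for emf2 callus and not leaf. AT5G41740 was at 219 RPKM on average in leaf and 2.63 RPKM in emf2 callus, and AT5G41750 at 222 and 10.3 RPKM. Of 37 genes for cysteine-rich receptor-like kinases, 19 were listed for leaf and not emf2 callus and above the bound, CRK4 and CRK14 among them at 106 and 73.9 RPKM. Of the 12 in both lists 3 rose, 5 fell and 4 did not pass, and their median of -0.32 became 0.58 on library totals, where 6 rose and 4 fell. CRK10 fell from 276 to 2.72 RPKM and CRK40 from 113 to 1.27 RPKM. Defence genes were highest in leaf replicate 3, and its part in these values was not tested. Of 138 cytochrome P450 genes, 67 were in both lists, of which 14 rose and 37 fell (19 and 20 on library totals). A further 33 were above the bound in leaf and 18 above it in emf2 callus. SAUR genes, known as fast auxin-response genes, had 17 of 36 members above the bound in leaf and 4 in emf2 callus. Of the 14 in both lists 3 rose, 4 fell and 7 did not pass, against shares of 34.1% higher and 31.2% lower over all genes. Their median of -0.19 became 0.51 on library totals, where 5 rose and 2 fell.

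Among the 244 genes listed for emf2 callus and neither other group, 138 were above the bound for leaf and 113 of those also above that for WT callus. The highest were AT5G17090, of the cystatin and monellin superfamily, at 87.4 RPKM, and AT1G27860 at 34.6 RPKM. AT1G03710, of the same superfamily as AT5G17090, was at 20 RPKM. TCP1, a TCP factor, was at 18.0 RPKM, and TT16, a MADS-box gene of the seed coat, at 15.8 RPKM. Precursors of microRNAs with poly(A) tails were measured too: MIR163 was at 24.2, 36.7 and 12.8 RPKM in leaf and not listed for emf2 callus, and MIR168a rose from 4.54 to 17.2 RPKM (1.73 ± 0.29). MIR824 was at 3.18 RPKM and listed for emf2 callus alone. These are levels of precursor RNA, not of mature microRNAs.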
